A study of Gossypium hirsutum with 6 samples.

Results

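RD22 genes encode secreted proteins with a C-terminal BURP domain, and 4 of them were followed in cultured ovules of upland cotton (*Gossypium hirsutum*). A gene was included if it is protein-coding, is described in the annotation as BURP domain protein RD22 and has a summed count of at least 60 over the 6 samples. Of 100562 genes listed, 11 were described as RD22 and 4 reached this sum. The other 7 were nearly silent, with 6 of them at 0 counts in every sample and the remaining gene at a sum of 7, whereas the lowest sum among the included genes was 1332. Ovules of wild type plants of the line ZM24, collected at anthesis, were cultured in the dark for 2 d with water (CK) or with 10 μmol/L putrescine (Put), which is the diamine made from arginine by the arginine decarboxylase pathway. Each condition had 3 samples, and whole ovules with their fibers were used, so the counts come from a mixture of cell types. The replicates were random portions of the collected ovules, per the methods of the study, so the p-values measure the spread between such portions. The comparison asks which genes respond when putrescine is added while fibers start to elongate.

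The BURP domain takes its name from the founding members of the family, which are the rapeseed protein BNM2, the bean seed protein USP, RD22 of Arabidopsis and the beta subunit of tomato polygalacturonase 1. RD22 was found in Arabidopsis as a gene that responds to dehydration and abscisic acid, and its promoter is bound there by factors of the MYC2 and MYB2 types. In cotton, an RD22-like protein of the cell wall is known to bind an alpha-expansin, a protein that loosens the wall, and has been linked to fiber growth.

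Sequencing depth was 16974557 to 19463059 counted read pairs per sample. The distance between a pair of samples over all tested genes was at most 74.5 log2 CPM units within a condition and at least 130.4 between conditions, and no library stood apart from its own condition. CPM is the count scaled to a common library size after TMM normalization, and FPKM is the deposited value that is also scaled by gene length. Markers of ovule identity were present, with 4 genes described as AGL11, a regulator of ovule identity, at between 77.2 and 120 FPKM in CK. Homologs of BEL1 on the same list were lower, at 13.0 (LOC107947047), 12.5 (LOC107949025) and 1.46 FPKM (LOC107963801) in CK. All 3 fell with Put, with log2 fold changes of -0.68, -0.36 and -1.43 in this order. The 9 genes of this list summed to 390 to 392 FPKM in CK and 415 to 423 FPKM in Put. Of 7 tested genes, 3 (42.9%) were higher, all described as AGL11, and 3 (42.9%) lower, all homologs of BEL1. Markers of green tissue were also detected, at a sum of 192 to 195 FPKM in CK and 157 to 162 FPKM in Put. Of 37 tested markers of green tissue, 1 (2.70%) was higher and 13 (35.1%) were lower with Put. Over all tested genes, 18.5% were higher and 18.4% lower. Markers of endosperm and embryo summed to 101 to 114 FPKM in CK and 121 to 127 FPKM in Put, and 37 of those 62 genes were at 0 in every sample. Pollen and anther markers summed to 73.2 to 75.6 FPKM and 80.8 to 86.1 FPKM.

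The 4 genes lie as tandem pairs at corresponding places of chromosomes A05 and D05 in the assembly Gossypium_hirsutum_v2.1, and all are on the plus strand. On A05, LOC107958896 spans 4934173 to 4936178 and is called here the upstream copy. The downstream copy on A05 is LOC107958897, which spans 4946130 to 4948057, with 9951 bp between the copies. On D05, the upstream copy LOC121202892 spans 4136772 to 4139039 and the downstream copy LOC107906941 spans 4156506 to 4158566, with 17466 bp between them. The gene lengths used for FPKM, which leave out introns, were 1583, 1545, 1789 and 1592 bp in this order. On both chromosomes the tandem pair is preceded by a gene described as *YUCCA6*-like, for an auxin synthesis enzyme, and followed by genes described as *ANTI-SILENCING 1* and *ALTERED PHOSPHATE STARVATION RESPONSE 1* (*APSR1*). The copies were matched between A05 and D05 by this order alone, and their sequences were not compared here. The descriptions do not follow this match. LOC107958896 and LOC107906941 are described as RD22, and LOC107958897 and LOC121202892 as RD22-like. The sources used here do not say how read pairs that match both copies were counted, so counts may have been exchanged between similar genes.

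With Put, both downstream copies and the upstream copy on D05 rose, and the upstream copy on A05 fell. In edgeR's quasi-likelihood test over the 51764 genes that passed the filter on low counts, 3 of the 4 RD22 genes were higher with Put and 1 was lower at a Benjamini-Hochberg adjusted p under 0.05. The background was large, since 18.5% of all tested genes passed as higher and 18.4% as lower, 37.0% in either direction. CPM values of the conditions did not overlap for any of the 4 genes. This was also found for 45.4% of all tested genes, with 22.8% higher and 22.6% lower. Passing the test therefore does not set these genes apart, and the results lie in the size and the direction of each change.

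**Figure D1:**
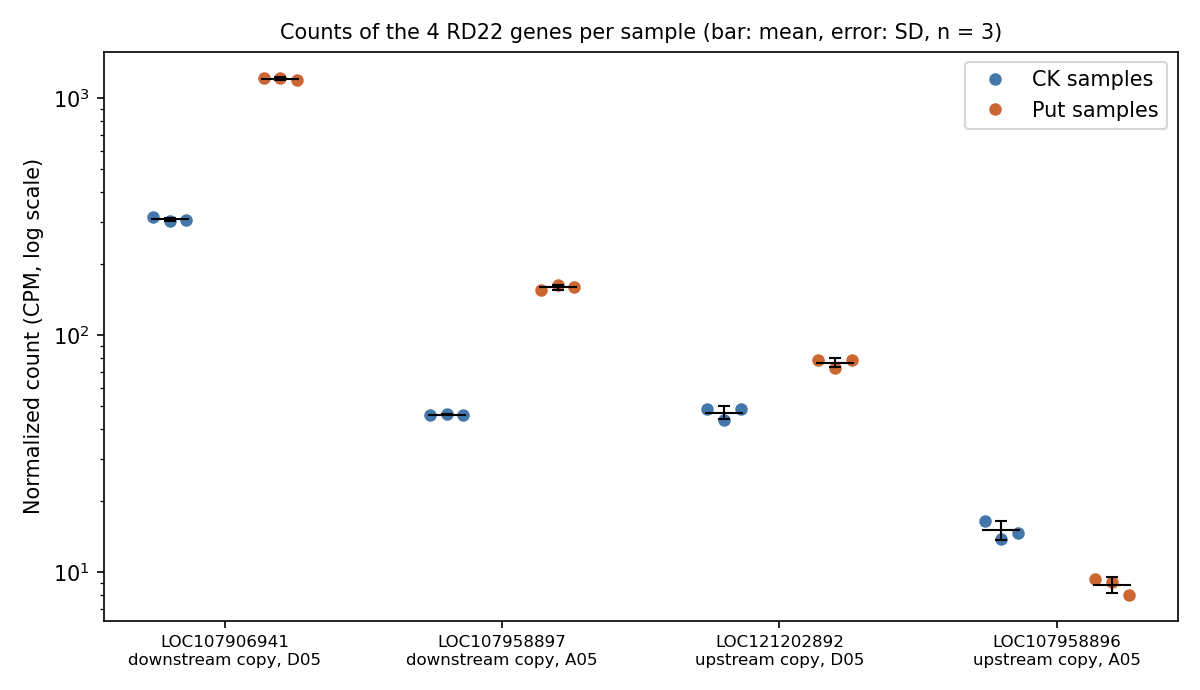
Normalized counts (CPM, log axis) of the 4 RD22 genes in the 3 CK and the 3 Put samples, with the mean and SD of each condition. The downstream copies move up the most, LOC121202892 moves up less, and LOC107958896 is the only one of the 4 with every Put sample below every CK sample.

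LOC107906941, the downstream copy on D05, was by far the most abundant of the 4. Its counts were 6048, 5932 and 5896 read pairs in CK, compared with 22168, 20407 and 20234 in Put. All Put samples lay far above all CK samples, and the samples of a condition were close to each other. The normalized count rose from 308 ± 5.93 to 1206 ± 17.0 CPM (SD, n = 3), which is 3.92-fold. This is 1.97 on the log2 scale (standard error 0.02, adjusted p = 2.00e-96, edgeR), rank 473 among the tested genes, which is within the top 0.914%. Per gene length, it went from 192 to 752 FPKM, and from rank 190 to rank 28 among protein-coding genes.

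LOC107958897, the downstream copy on A05, is an RD22-like gene with 4 transcripts in RefSeq. Its counts were 886, 910 and 887 in CK and 2818, 2724 and 2726 in Put. The CK samples differed by less than counting noise, with a coefficient of variation of 0.428% against 3.34% from counting alone, and the conditions were well separated. The normalized count rose 3.44-fold, from 46.2 ± 0.198 to 159 ± 3.74 CPM. On the log2 scale this is 1.78 (standard error 0.04, adjusted p = 1.83e-66, edgeR), rank 623 among the tested genes. Its rank by FPKM among protein-coding genes moved from 3522 to 617.

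LOC121202892, the upstream copy on D05, is also described as RD22-like, although the closest annotated protein in its record is a BURP protein of rice. Its counts were 938, 858 and 942 in CK and 1428, 1220 and 1342 in Put. Every Put sample was above every CK sample, but the step was smaller than that of either downstream copy. The normalized count rose 1.63-fold, from 47.1 ± 2.95 to 76.6 ± 3.45 CPM, or by 0.70 on the log2 scale (standard error 0.05, adjusted p = 3.38e-25, edgeR).

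LOC107958896, the upstream copy on A05, was the least abundant. Its counts were 318, 272 and 282 in CK and 170, 153 and 137 in Put. Here every Put sample was below every CK sample, and the relative spread within a condition was wider than for the other copies. The normalized count fell from 15.0 ± 1.36 to 8.83 ± 0.695 CPM, so that CK was 1.70-fold higher. On the log2 scale the change was -0.76 (standard error 0.10, adjusted p = 9.08e-10, edgeR). The spread of the Put samples, at a coefficient of variation of 7.88%, was about that of counting alone at 8.08%, and the CK samples varied by 9.05% against 5.87%.

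The order of the 4 levels per gene length was the same in both conditions. In CK, LOC107906941 had 192 ± 3.69 FPKM, LOC107958897 29.7 ± 0.118, LOC121202892 26.2 ± 1.65 and LOC107958896 9.42 ± 0.852 FPKM. LOC107958897 and LOC121202892 were close in CK, at a ratio of 1.13, although their samples did not overlap. In Put, the levels were 752 ± 10.7, 102 ± 2.41, 42.5 ± 1.91 and 5.53 ± 0.436 FPKM in the same order of genes. The ratio of LOC107958897 to LOC121202892 was then 2.40, and that of LOC121202892 to LOC107958896 went from 2.78 to 7.68. The levels thus spread further apart with Put.

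**Figure D2:**
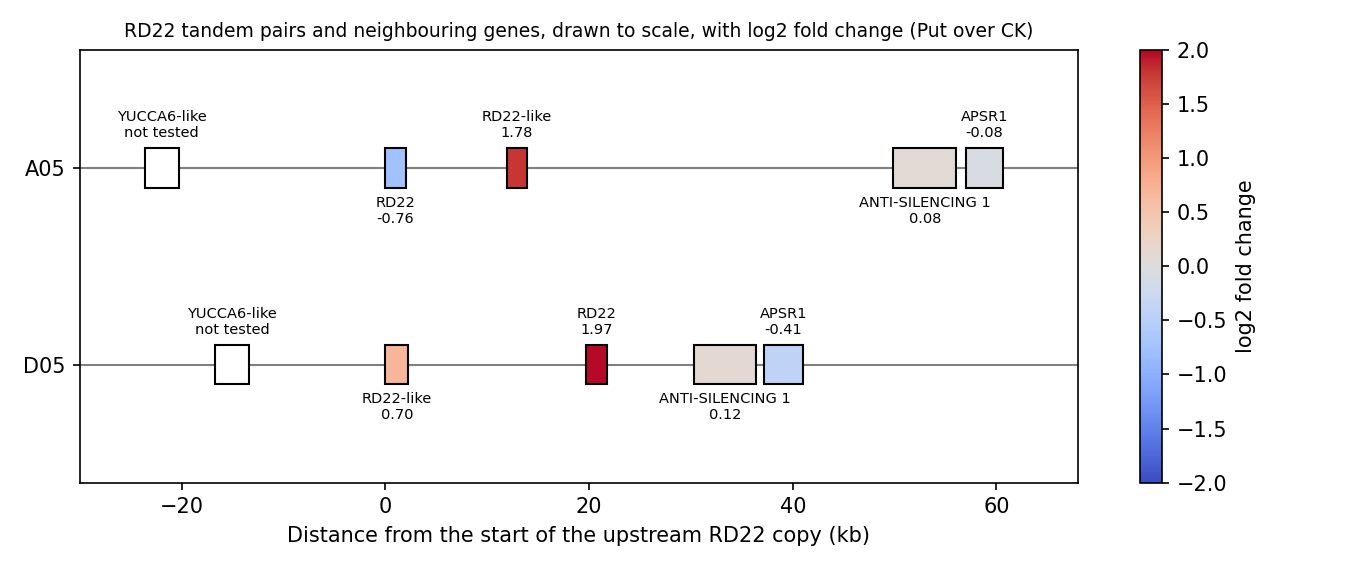
The tandem pairs of RD22 genes on A05 and D05 and the neighbouring genes, drawn to scale as kb from the start of the upstream copy, with the log2 fold change of Put over CK as colour and number. The downstream copies have 1.78 and 1.97, the upstream copies -0.76 on A05 and 0.70 on D05, and no tested neighbour is above 0.12.

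The neighbouring genes did not share the rise of the RD22 genes. *ANTI-SILENCING 1* had a log2 fold change of 0.08 on A05 (LOC107960811, adjusted p = 0.497, edgeR) and 0.12 on D05 (LOC107906938, adjusted p = 0.416). *APSR1* had -0.08 on A05 (LOC107958898, adjusted p = 0.303), whereas its copy on D05 (LOC107906937) fell, with -0.41 (standard error 0.09, adjusted p = 4.22e-05). The *YUCCA6*-like genes had at most 5 counts in a sample and were not tested.

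Ratios of the counts of 2 copies within a sample, which do not depend on library size, were then compared between the conditions. In all 4 ratios were formed, and the Benjamini-Hochberg adjusted p of each was 0.1, as was its own p. On A05, the log2 ratio of LOC107958897 to LOC107958896 was 1.48, 1.74 and 1.65 in CK and 4.05, 4.15 and 4.32 in Put. The samples of the conditions lay far apart, and the means differed by 2.55 on the log2 scale, a 5.85-fold change of the ratio (exact permutation test, two-sided p = 0.1, the smallest that 3 against 3 samples allow). On D05, the log2 ratio of LOC107906941 to LOC121202892 rose from 2.71 ± 0.074 to 3.98 ± 0.077 (SD, n = 3, exact permutation p = 0.1), a 2.41-fold change. On both chromosomes the downstream copy therefore gained on the upstream copy in every Put sample.

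**Figure D3:**
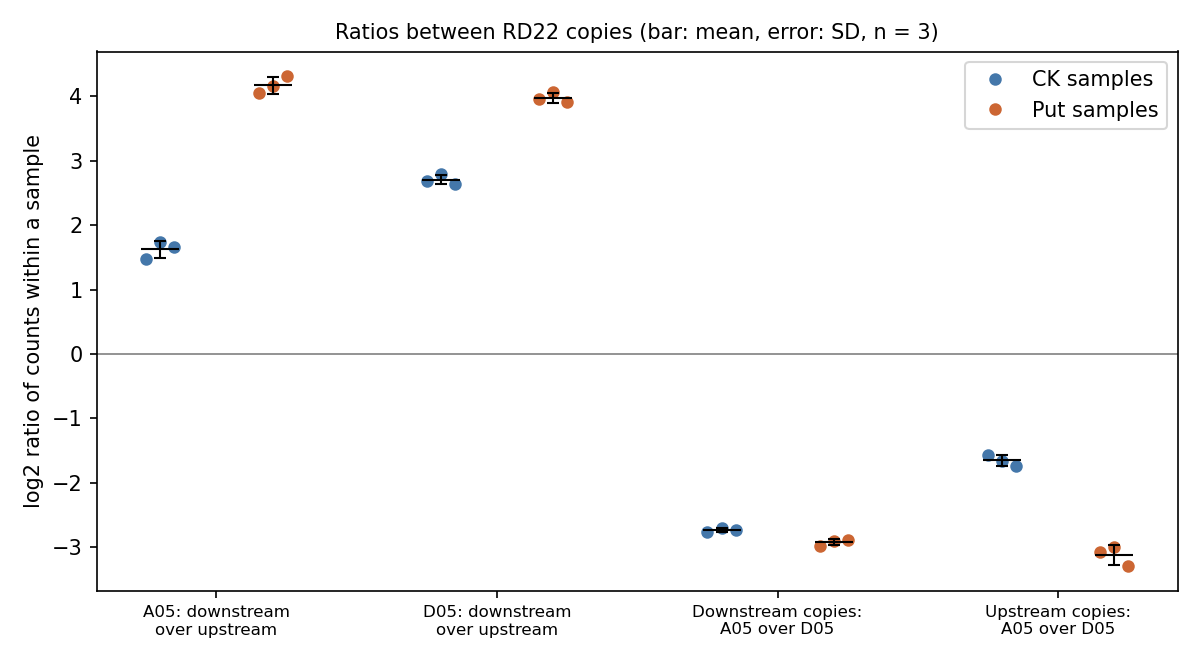
The log2 ratio of counts of pairs of RD22 copies within each CK and Put sample, with the mean and SD of each condition (n = 3). The ratio of downstream to upstream copy goes up on both chromosomes, by 2.55 on A05 and 1.27 on D05, while the A05 copy loses against the D05 copy by 1.47 upstream and 0.19 downstream.

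Between the subgenomes, the upstream copies parted more than the downstream copies. The log2 ratio of the A05 to the D05 copy fell from -1.65 ± 0.09 to -3.12 ± 0.154 for the upstream copies (SD, n = 3, exact permutation p = 0.1). For the downstream copies it went from -2.74 ± 0.033 to -2.92 ± 0.045 (exact permutation p = 0.1), a small step that was nonetheless free of overlap. The A05 copy had 23.0% to 25.3% of the upstream counts in CK but 9.26% to 11.1% in Put. The 95% Wilson intervals of the single samples lay between 20.8% and 27.8% in CK and between 7.89% and 12.9% in Put. Of the downstream counts, the A05 copy had between 12.8% and 13.3% in CK, with intervals from 12.0% to 14.1%, and between 11.3% and 11.9% in Put, with intervals from 10.9% to 12.3%. These intervals cover counting error only, and those of CK and Put overlapped for the downstream copies.

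Sums over an A05 and a D05 copy do not change when read pairs are exchanged between the 2. They do change when read pairs are exchanged between an upstream and a downstream copy, and such exchange was not tested. The downstream copies together had 360, 349 and 353 CPM in CK and 1373, 1376 and 1347 CPM in Put, a 3.86-fold rise of the mean. The upstream copies together had 65.2, 57.6 and 63.6 CPM in CK and 87.8, 81.7 and 86.7 CPM in Put, which is 1.38-fold. Both sums were free of overlap, and the downstream sum moved more than the upstream sum.

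**Figure D4:**
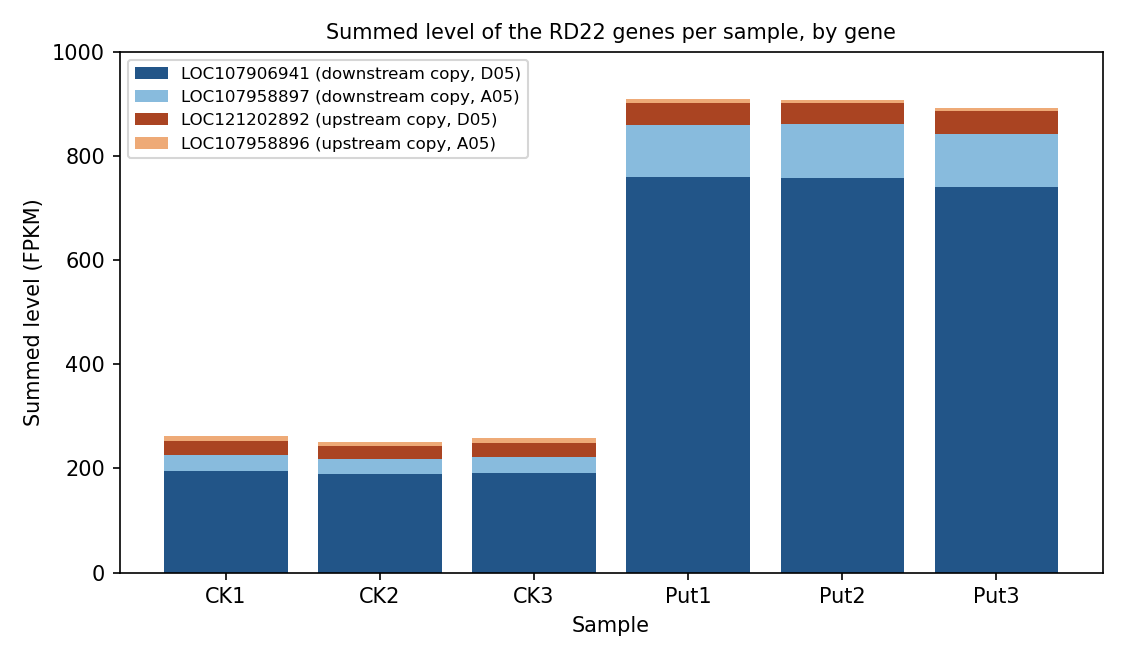
Level of the RD22 genes (FPKM) summed in each sample and divided by gene. The sums are 251 to 263 FPKM in the CK samples and 891 to 908 FPKM in the Put samples, and LOC107906941 makes up the largest part of every bar.

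Together the 4 genes reached 257 ± 5.77 FPKM in CK and 902 ± 9.56 FPKM in Put (SD, n = 3). LOC107906941 made up between 74.3% and 75.0% of this sum in CK and between 83.0% and 83.6% in Put. LOC107958897 kept a nearly constant part, between 11.3% and 11.9% in CK and between 11.0% and 11.5% in Put. The part of LOC121202892 went down from between 9.66% and 10.6% to between 4.44% and 4.90%, although its own level rose. LOC107958896 went from between 3.46% and 3.94% to between 0.565% and 0.645%. The summed level was thus mostly that of a single gene, in Put even more than in CK.

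Markers of fiber cells moved in both directions, while their summed level rose. Of 10 tested genes on this list of 16, 5 were higher and 5 were lower, with a median log2 fold change of -0.04. Every tested gene of the list was thus called, against 37.0% of all tested genes, with 18.5% higher and 18.4% lower. The sum of the 16 was between 6489 and 6640 FPKM in CK and between 12550 and 12670 FPKM in Put. This rise was carried by genes for the fiber protein E6, with LOC107905808 at 707 and 3757 FPKM, LOC107913945 at 543 and 3144 FPKM and LOC107941059 at 127 and 429 FPKM in CK and Put. Of the other tested E6-like genes, LOC107907823 rose from 2.15 to 5.31 FPKM, with a log2 fold change of 1.30. LOC107925267 and LOC107886797 fell, with -0.52 and -1.39. The HOX3-like genes, for a transcription factor that acts in fiber growth, also fell, LOC107921257 from 5.20 to 3.90 FPKM and LOC107917038 from 3.89 to 1.93 FPKM. Of the genes for lipid-transfer protein 3, LOC107928594 had 0.13 and LOC121221012 had -0.20. The part of fiber cells in the changes of the RD22 genes was not tested. Since the samples are whole ovules, more fiber cells and more RNA per fiber cell cannot be told apart.

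The genes whose change over the 6 samples was nearest to that of LOC107958897 were searched by the root mean square difference of centred log2 CPM. The nearest was LOC121215962, described as peamaclein-like, a name for small gibberellin-regulated proteins, with a difference of 0.017 and a rise from 95.4 ± 0.877 to 331 ± 5.06 CPM. It was followed by LOC107936697 for a beta-9 tubulin, a building block of microtubules, at 0.025 and by LOC107914538 for a lipid-transfer protein at 0.026. LOC107906941 was at 0.10, as the 60th nearest gene. For LOC107958896, the nearest were LOC107952041 for a NAC domain protein at 0.037, LOC107946750 for a transcription factor MYC2 at 0.046 and LOC107899633 for a glutathione S-transferase at 0.047. LOC107946750 fell from 39.7 ± 2.96 to 23.2 ± 1.91 CPM. These are descriptions over 6 samples of 2 conditions, in which any genes with a like fold change come near to each other.

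Other genes of the BURP family also moved in both directions. Of 14 tested, 3 (21.4%) were higher and 5 (35.7%) were lower with Put, against 18.5% and 18.4% of all tested genes. The share of higher genes was thus near that of all tested genes. The median log2 fold change was -0.11, against 0.001 over all tested genes. Of the 3 higher genes, LOC107887203 and LOC107940699 are described as polygalacturonase 1 beta-like protein 3, a relative of the noncatalytic subunit that binds polygalacturonase in the cell wall. LOC107887203 on A03 had 684, 701 and 698 read pairs in CK and 1886, 1687 and 1589 in Put, which is 1.47 on the log2 scale (standard error 0.05, adjusted p = 1.76e-51, edgeR). LOC107940699 on D01 rose from 9.86 ± 1.10 to 17.3 ± 1.72 CPM, with 0.81. The other 3 genes of this description with a mean of at least 10 CPM did not pass, with log2 fold changes of 0.09 for LOC107886579, 0.18 for LOC107910159 and -0.07 for LOC121220259. The third was LOC107915145, described as BNM2A, which was at 175 FPKM in CK, beside 192 FPKM for LOC107906941. It rose from 267 ± 3.11 to 286 ± 3.52 CPM, by 0.10 on the log2 scale (adjusted p = 7.46e-04). Lower with Put, at a mean of at least 10 CPM, were LOC107896372 for USPL1 at -0.43, LOC121225707 for USPL1-like at -0.25 and LOC107891102 for BNM2A at -0.24. The remaining lower genes, LOC107938849 and LOC107908584, were below 10 CPM and had steeper falls, at -1.30 and -2.09.

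**Figure D5:**
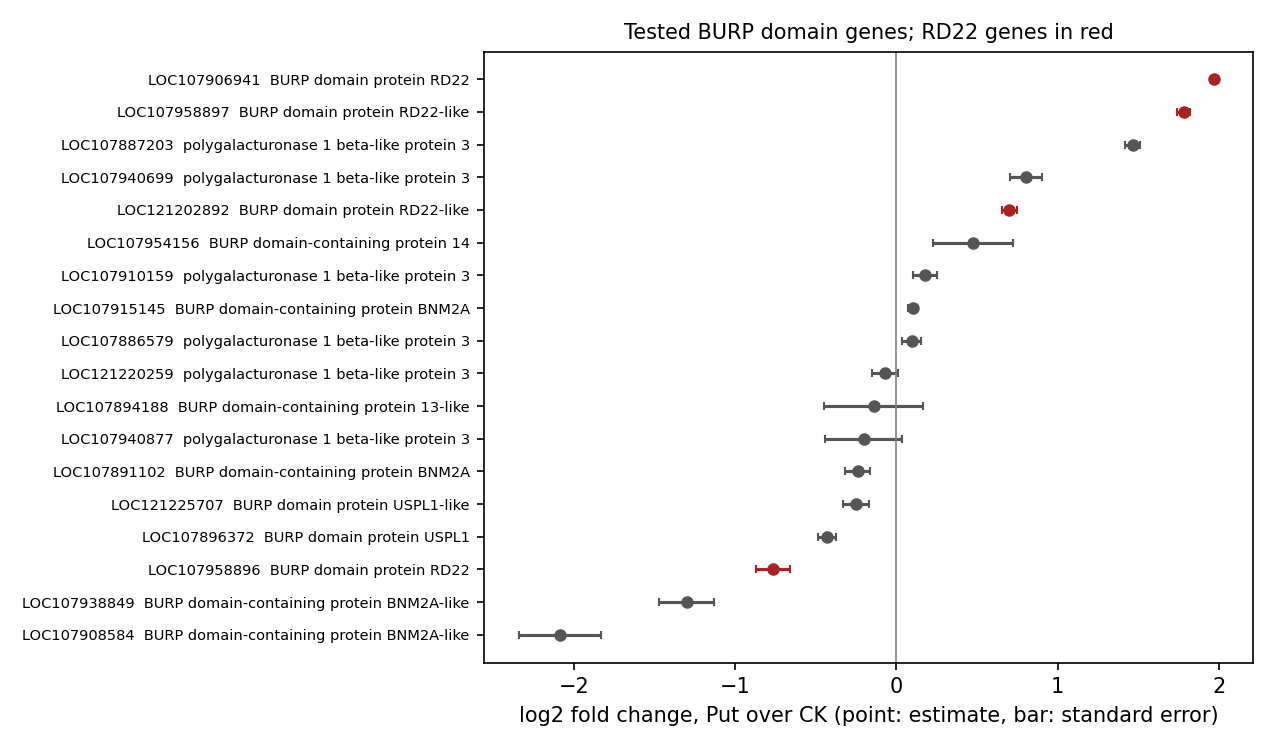
Log2 fold change of Put over CK with its standard error for the tested BURP domain genes, with the RD22 genes in red. The downstream RD22 copies, at 1.97 and 1.78, stand at the upper end, and LOC107958896, at -0.76, stands near the lower end.

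Genes that carry RD22 only as their closest annotated protein were not included. Both with counts were lower with Put. LOC121229267, a pseudogene on A05 from 6850991 to 6852587, had 500, 528 and 560 read pairs in CK and 435, 407 and 392 in Put, which gives -0.21 on the log2 scale (standard error 0.07, adjusted p = 0.0143, edgeR). LOC107959295, an uncharacterized gene on D05 from 5931750 to 5932959, had 75, 70 and 89 in CK and 44, 41 and 31 in Put, with -0.85 (standard error 0.20, adjusted p = 3.37e-04). Neither had overlapping conditions, and both went the way of LOC107958896.

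Alpha-expansins, to which the cotton protein related to RD22 binds, moved in both directions. Of 38 tested, 10 (26.3%) were higher and 12 (31.6%) lower, with a median log2 fold change of 0.04. Of all tested genes, 18.5% were higher and 18.4% lower. LOC107914543, described as expansin-A4-like, had 6991, 7055 and 6952 read pairs in CK and 32621, 31294 and 31733 in Put. With a log2 fold change of 2.35 (standard error 0.02), it rose the most among the called genes of the list with a mean of at least 1 CPM. LOC121225553, with the same description, had the largest fall among those genes, from 7.47 ± 1.68 to 2.01 ± 0.258 CPM, or -1.89 on the log2 scale.

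Genes described as MYC2, the bHLH factor type that acts on RD22 in Arabidopsis, were also counted. Over all tested genes, 18.5% were higher and 18.4% lower with Put. Of 9 tested genes described as MYC2, 1 was higher and 7 were lower, with a median log2 fold change of -0.44. The higher gene was LOC107942873 on A11, which rose from 10.7 ± 0.12 to 17.1 ± 0.642 CPM, or by 0.68 on the log2 scale. No tested gene was described as MYB2. The same list also holds 4 tested genes described as MYB102, a different factor of the MYB family, of which 0 were higher and 2 were lower. LOC107917547, for a MYB102-like factor, had 86, 75 and 67 read pairs in CK and 10, 15 and 5 in Put, at -2.75 on the log2 scale (standard error 0.28). Over the whole list of 13 tested genes, 1 (7.69%) was higher and 9 (69.2%) were lower, with a median of -0.44. A link of these genes to the changes of the RD22 genes was not tested.

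Of 97 tested genes of abscisic acid signalling, 16 (16.5%) were higher and 30 (30.9%) lower, with a median of -0.02. Of all tested genes, 18.5% were higher and 18.4% lower. Among the called abscisic acid genes with a mean of at least 1 CPM, LOC107917054 rose the most. It is described as *ABSCISIC ACID-INSENSITIVE 5*-like protein 3, a transcription factor of the bZIP type. Its counts were 4, 6 and 12 read pairs in CK and 49, 29 and 46 in Put. The largest fall among those genes was in LOC107913139, with a log2 fold change of -1.06. It encodes a kinase of the SRK2I type, which relays the abscisic acid signal. Of 43 tested genes of dehydration and late embryogenesis abundance, 16 (37.2%) were higher and 9 (20.9%) lower, with a median of 0.06. This list includes 19 tested genes described as ERD6-like sugar transporters, of which 7 (36.8%) were higher and 0 lower. LOC107911329, described as late embryogenesis abundant protein 2, rose from 0.653 ± 0.0737 to 6.66 ± 0.701 CPM, or by 3.33 on the log2 scale. This is the largest rise among the called genes of the list with a mean of at least 1 CPM. LOC107922971, described as late embryogenesis abundant protein 3-like, fell from 46.8 ± 2.46 to 27.7 ± 1.39 CPM, with -0.75.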

How the data were processed

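RNA-seq reads of 3 CK and 3 Put samples were aligned by the authors with HISAT2 2.0.5, per the submitters' processing notes, to Gossypium_hirsutum_v2.1. The deposited gene counts are whole read pairs that the authors had not normalized. The program that counted them is not given in the sources used here. The authors also deposited FPKM, whose values equal the count divided by gene length and by a library size proportional to DESeq2's size factor.

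The fit used edgeR 4.0.16 under R 4.3.3 (filterByExpr, TMM, robust quasi-likelihood test, Benjamini-Hochberg adjustment over 51764 tested genes). The RefSeq gene table held 99451 of the 100562 identifiers. Depth was 16974557 to 19463059 counts per sample, and 3 counts, taken as the floor, were 0.153 to 0.178 CPM. Alternatives used DESeq2 1.42.0, limma 3.58.1 on log2 FPKM with a pseudocount of 1 or 0.1 and with or without a minimum mean of 0.5 FPKM, DESeq2's size factors, library size alone, no filter, offsets by gene length, the replicate number as a block, and leaving out each sample. Tests were checked on simulated counts, in which far fewer genes changed than were called here.

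The named genes are the RD22 genes, other BURP genes from a mean of 10 CPM on, the called gene with the largest and the smallest log2 fold change of each other list from a mean of 1 CPM on, and the 3 genes nearest in pattern to LOC107958897 and to LOC107958896. Neighbours, genes with RD22 as closest protein, ratios other than that of LOC107958897 to LOC107958896, the split of MYC2 and MYB102 genes and marker genes were chosen after their values were seen. The members and lists were chosen with earlier results of these data known, and an RD22 gene of A05 is among those that the study itself selected from these samples. No list was tested as a set.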

Additional observations from a re-analysis of the deposited data

How the results depend on the processing

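The number of RD22 genes called, with 3 higher and 1 lower, was the same under all 15 alternatives. Over these, the log2 fold change was between 1.95 and 1.99 for LOC107906941, between 1.75 and 1.80 for LOC107958897, between 0.65 and 0.74 for LOC121202892 and between -0.82 and -0.67 for LOC107958896, with adjusted p of at most 2.81e-10, 7.7e-09, 5.71e-05 and 6.06e-04 in this order. Without any single sample, the change of the log2 ratio of LOC107958897 to LOC107958896 was between 2.48 and 2.61 and the fold of the summed level between 3.45 and 3.53. The number of genes called over the whole table was 19132, and between 15906 and 19450 under the alternatives. Same-numbered CK and Put samples did not deviate together (correlations of -0.005, -0.009 and -0.013), so the counts gave no sign that the numbers pair the samples. With the replicate number as a block, 18727 genes were called. Counts limit LOC107958896 the most, since its 137 to 318 read pairs leave a counting error of several percent, and the exact tests of ratios cannot go below p = 0.1.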

Other observations

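Among the BURP genes below 10 CPM, the pair with the steepest falls was described as BNM2A-like, and these genes were picked after their values were seen. LOC107938849 on A03 had 129, 124 and 127 read pairs in CK and 45, 43 and 50 in Put, or -1.30 on the log2 scale (standard error 0.17, adjusted p = 1.83e-10, edgeR). LOC107908584 on D02 had 67, 84 and 73 in CK and 20, 14 and 13 in Put, with -2.09 (standard error 0.25, adjusted p = 1.26e-11). All Put samples were below all CK samples for both, as for 22.6% of all tested genes. The genes described as RD22 on A08 and D08 had 0 counts in all samples, which allows a level of up to 0.178 CPM in the shallowest library.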
